A study of Mus musculus with 12 samples.

Results

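Imiquimod-treated mouse ear skin was compared with ear skin of the group labelled UTX/Veh, taken here to be untreated, in mice given the DMSO vehicle alone. The comparison held 6 of the 12 libraries of the series, chosen by their titles: 3 of IMQ/Veh and 3 of UTX/Veh. All 6 came from the ears of C57BL/6 mice of 8 to 12 weeks, with no other genotype named, and are titled day 6. In IMQ/Veh the dorsal ear received 20.8 mg of Aldara, a cream with 5% imiquimod by weight, each day until the day before collection. DMSO was the vehicle for GW3965 and troglitazone, which the other 6 imiquimod libraries received at 20 and 150 mg/kg from day 3 and which were absent here. The labels do not spell out UTX and name no cream without imiquimod, so the drug and the base of the cream cannot be told apart. Whether each replicate came from its own mouse is not stated either, and the p-values therefore cover only the spread between these samples, which may be technical.

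Imiquimod is a small molecule that activates Toll-like receptor 7, an endosomal receptor for single-stranded RNA that signals through the adaptor MyD88 to NF-kB and interferon regulatory factors. Repeated application to mouse skin is widely used to produce a psoriasis-like inflammation with a thick, scaling epidermis. Keratinocytes normally divide in the basal layer, leave it, fill with keratin 1, 2 and 10 and die as cornified cells, and in damaged or inflamed skin they switch to other keratins and envelope proteins. Ear skin also holds thin sheets of cartilage, muscle and fat, whose RNA enters a whole-tissue library.

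Of 17130 genes that passed the count filter, 61.9% differed between the groups in the quasi-likelihood test of edgeR at an adjusted p under 0.05, which is 10597 genes. The shares were 33.0% higher (5646 genes) and 28.9% lower (4951 genes) in IMQ/Veh. Every count of list members below stands against these shares. The lists were chosen with earlier results of these data known, so a count above a share may be built in by that choice. A change of at least 4-fold was seen in 1292 genes, which is 7.54%, with 721 higher (4.21%) and 571 lower (3.33%). Very large changes were mostly gains: 134 genes were higher by at least 5 log2 units and 9 were lower by as much. Conversely, 2887 genes had a 95% interval that lay wholly within 0.5 log2 units of no change. By kind of gene, 43.2% of 419 processed pseudogenes were higher and 6.21% were lower, whereas 18.2% of 413 long intergenic RNAs were higher and 33.7% were lower. Processed pseudogenes resemble their parent genes, so reads may be divided uncertainly between them.

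Library totals of the 6 samples were 19800565 to 25641602 estimated counts. Values per gene are CPM, read counts scaled to a common library size with TMM factors, given in the order replicate 1, 2, 3. The factors were 1.15 to 1.176 in UTX/Veh and 0.916 to 0.9705 in IMQ/Veh. Every change therefore stands higher than with library totals alone. Fold changes are log2 of IMQ/Veh over UTX/Veh (n = 3 libraries in each group) with a standard error. That error was derived from the test statistic of a fit of all 12 libraries. The agonist libraries therefore share in it, and it is not the spread of the 2 groups alone. The summed CPM of 16 keratinocyte markers was 36219 to 43693 in UTX/Veh and 74794 to 87676 in IMQ/Veh (12 higher and 1 lower). Muscle, cartilage, fat and nerve markers had lower sums. Summed muscle markers were 15839, 17439 and 18185 CPM in UTX/Veh and 2115, 2317 and 8044 CPM in IMQ/Veh, with 16 of 16 lower, and summed cartilage markers were 1606 to 2300 and 286 to 883 CPM, with 14 of 15 lower. Adipocyte markers were at 1031 to 1698 and 328 to 907 CPM (6 of 13 lower), and Schwann cell and nerve markers at 907 to 1027 and 403 to 552 CPM (12 of 18 lower). CPM are shares of a library. Fewer cells of a type, less RNA per cell and a smaller share beside more RNA of other cells cannot be told apart here. The part of tissue makeup in the results below was not tested.

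The IMQ/Veh libraries spread more than the UTX/Veh libraries. The median SD of log2(CPM + 0.5) was 0.217 among them and 0.114 among UTX/Veh. Of 12071 genes with at least 5 CPM, 201 ranged at least 4-fold among the IMQ/Veh libraries, and 176 of these were highest in replicate 3, while 136 were lowest in replicate 2. The muscle, cartilage and fat markers were highest in replicate 3. Without that library 1929 genes changed at least 4-fold, and 12 of 13 adipocyte markers were lower. The file names carry a lane field, L001 or L009, that mixes both groups (2 UTX/Veh and 1 IMQ/Veh library in L001). The IMQ/Veh library in L001 was replicate 2. Within both lanes 99.7% of the changed genes had the same sign, and the difference there was not tested. These genes were called with the same libraries, so a high share was built in and cannot decide whether the lane had an effect.

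**Figure D1:**
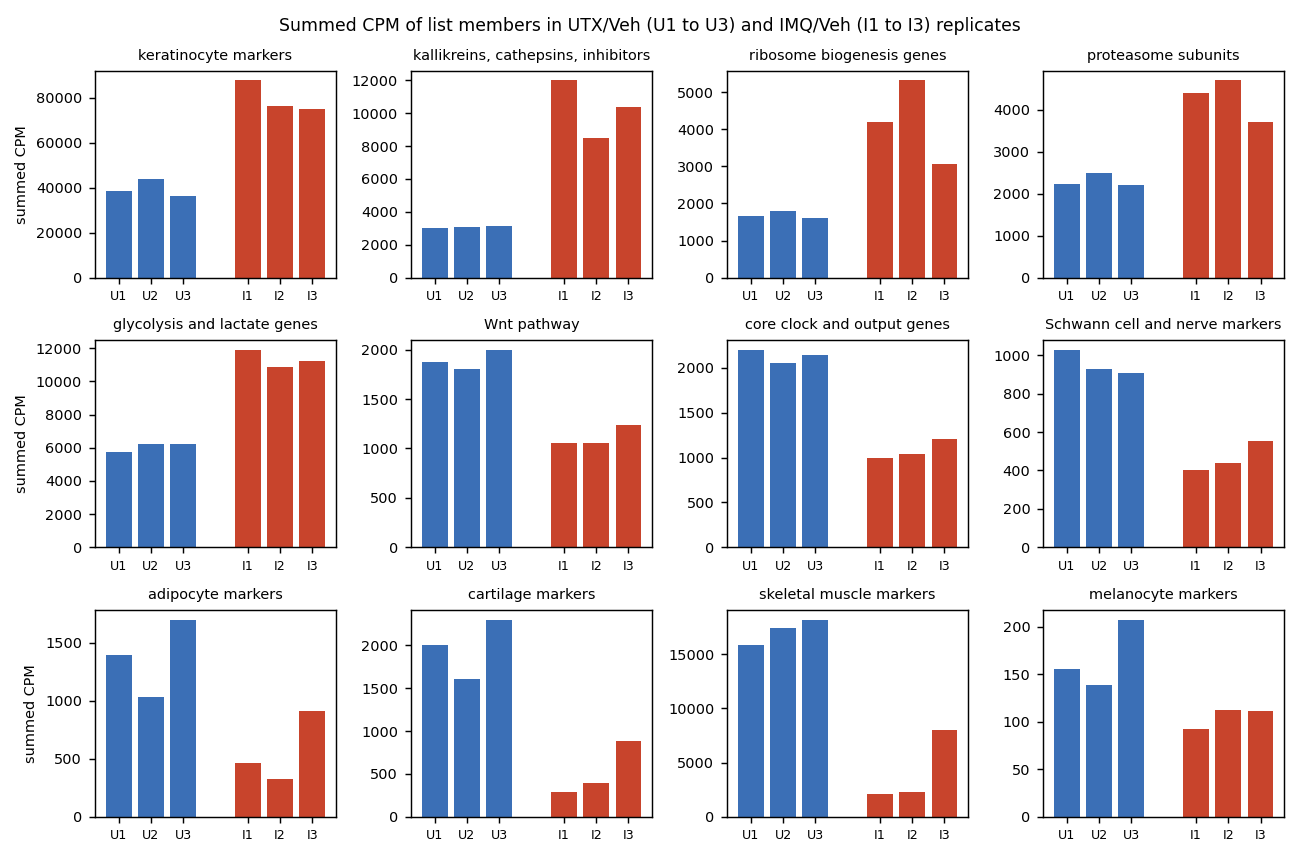
Summed CPM (y axis, from 0) of the tested members of 12 gene lists in each UTX/Veh (blue) and IMQ/Veh (red) library; each bar is 1 library. Muscle markers stand at 15839 to 18185 CPM in UTX/Veh and at 8044 CPM in IMQ/Veh replicate 3, against 2115 and 2317 CPM in replicates 1 and 2.

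The bases ahead of 4 genes are shown because each pair invites comparison. Cxcl2 and Cxcl3 are neutrophil chemokine genes on the same stretch of chromosome 5, though not side by side, that rose together. Flg and Flg2 are neighbouring genes of filaggrin-like proteins that moved apart. Each line gives the 250 bases before the start of the gene in the RefSeq table for GRCm38.p6, on the coding strand, with capitals at matches to any of 6 motifs. Cxcl2 lies at chr5:90903649-90903898, Cxcl3 at chr5:90785851-90786100, Flg at chr3:93273296-93273545 and Flg2 at chr3:93197023-93197272, all on the plus strand.
Cxcl2: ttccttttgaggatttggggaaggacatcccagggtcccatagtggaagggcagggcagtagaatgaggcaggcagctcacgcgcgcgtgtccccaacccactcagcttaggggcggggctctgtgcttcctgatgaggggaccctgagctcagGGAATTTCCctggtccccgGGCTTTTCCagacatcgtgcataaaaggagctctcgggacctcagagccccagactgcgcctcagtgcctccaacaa
Cxcl3: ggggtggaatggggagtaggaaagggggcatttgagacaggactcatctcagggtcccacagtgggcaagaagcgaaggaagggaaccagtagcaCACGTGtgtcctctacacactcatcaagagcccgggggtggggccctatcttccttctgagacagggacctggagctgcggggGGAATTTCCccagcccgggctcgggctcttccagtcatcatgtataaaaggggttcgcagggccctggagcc
Flg: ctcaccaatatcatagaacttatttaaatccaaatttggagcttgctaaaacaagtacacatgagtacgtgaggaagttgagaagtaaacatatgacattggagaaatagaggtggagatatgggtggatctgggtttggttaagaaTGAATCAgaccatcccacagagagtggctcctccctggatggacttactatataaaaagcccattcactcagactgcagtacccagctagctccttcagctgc
Flg2: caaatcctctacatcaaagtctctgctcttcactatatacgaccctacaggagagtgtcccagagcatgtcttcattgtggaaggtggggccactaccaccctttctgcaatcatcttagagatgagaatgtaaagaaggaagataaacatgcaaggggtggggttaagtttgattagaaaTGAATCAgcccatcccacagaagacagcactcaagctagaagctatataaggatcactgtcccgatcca
The genes were chosen after the matches were seen. Both chemokine windows hold GGAATTTCC, a match to the NF-kB pattern GGNNTTTCC, at 96 bases before the start in Cxcl2 and 72 in Cxcl3. Cxcl2 has another match, GGCTTTTCC, at 77 bases, and Cxcl3 has the E-box CACGTG at 155 bases. Flg and Flg2 carry the same match TGAATCA to the AP-1 pattern TGANTCA, at 103 and 69 bases, although their RNAs changed in opposite directions.

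Searched on both strands, the NF-kB pattern was in 4.84% of the 27025 promoters of the table, in 5.28% of those of 12224 tested genes, in 8.93% of 504 promoters of genes at least 4-fold higher and in 4.59% of 392 of genes at least 4-fold lower. The AP-1 pattern was in 6.87%, 5.05%, 13.7% and 4.59% of the same sets. For the STAT pattern TTCNNNGAA the shares were 7.18%, 5.95%, 9.72% and 4.59%, and for the C/EBP pattern TTGCNNAAT they were 2.17%, 1.64%, 3.37% and 2.3%. The E-box CACGTG was in 6.05%, 7.99%, 5.95% and 4.85%, and the D-box pattern TTATGNAA in 3.23%, 1.97%, 4.96% and 2.3%. These shares are descriptions of letters within the windows and not of binding. Where patterns overlap within a window, each was counted.

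The first question was how the sensing machinery that imiquimod acts on stood at day 6. Of 25 tested Toll-like receptors and adaptors, 16 were higher and 1 was lower (median log2 change 0.76, against 0.01 for all genes tested). Tlr7, the receptor imiquimod activates, was at 3.58, 4.10 and 4.19 CPM in UTX/Veh and at 5.14, 2.81 and 9.60 CPM in IMQ/Veh. Its groups overlapped, because replicate 2 of IMQ/Veh was the lowest of all 6. The change of 0.56 ± 0.36 did not pass the test (adjusted p = 0.201), and without that library it was 0.85 and did (adjusted p = 0.0271). Within lane L001, where replicate 2 was the only IMQ/Veh library, the change was -0.39, and within L009 it was 0.69. The lane and that library cannot be told apart here.

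Other receptors differed more clearly. Tlr13, which senses bacterial ribosomal RNA, rose from 1.42, 1.3 and 2.35 CPM to 9.96, 7.56 and 13.2 CPM (2.60 ± 0.33, adjusted p = 5.1e-05). Tlr1, which pairs with Tlr2 to detect bacterial lipopeptides, rose by 3.11 ± 0.46, from at most 1.2 CPM to at least 4.66 CPM. Slc15a3, a lysosomal peptide and histidine transporter, rose by 2.09 ± 0.30. Myd88, the adaptor that most of these receptors share, went from 32.9, 33.2 and 27.0 CPM to 87.4, 109 and 80.4 CPM (1.57 ± 0.17, adjusted p = 2.01e-05). Over all genes tested, the groups did not overlap in 66.8% (34.7% higher), and the rule that named Tlr13, Tlr1 and Slc15a3 asked for this.

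Tlr8 passed at 1.56 ± 0.47 (adjusted p = 0.0132), but the call was lost with limma-voom (adjusted p = 0.0707), without UTX/Veh replicate 1 (0.0532) and without IMQ/Veh replicate 3 (0.0567). Its levels were 1.34, 1.84 and 2.39 CPM against 6.17, 1.69 and 8.66 CPM. Within lane L001, where the low replicate 2 was the only IMQ/Veh library, the change was 0.08. Tlr9, a receptor for unmethylated DNA, differed by 0.56 ± 0.39 and did not pass. Irf7, the factor that drives type I interferon genes downstream of MyD88, was at 9.28, 10.9 and 6.71 CPM and at 7.73, 4.58 and 22.6 CPM. Replicate 3 alone put the IMQ/Veh mean of Irf7 above that of UTX/Veh: the change was 0.37 ± 0.47 with it and -0.55 without it, neither past the test. The leukocyte marker Ptprc, which encodes CD45, rose by 0.82 ± 0.25 (adjusted p = 0.0127), a call lost without UTX/Veh replicate 2 (adjusted p = 0.0507). Cd207, which encodes langerin of Langerhans cells, fell from 16.5, 14.0 and 14.9 CPM to 7.47, 6.80 and 7.35 CPM.

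Downstream of the receptors, 14 of 25 NF-kB subunits and feedback genes were higher and 2 lower (median 0.51). The largest changes were in nuclear co-regulators and brakes rather than in the subunits. Bcl3, an atypical IkB protein, rose from 6.09, 3.55 and 3.80 CPM to 60.1, 88.9 and 57.8 CPM (3.94 ± 0.47). Zc3h12a, which encodes the RNase regnase-1 that degrades cytokine mRNAs, rose from 20.2 to 38 CPM to 192 to 323 CPM (3.23 ± 0.37). Nfkbiz, the IkB-zeta co-activator needed for many interleukin 17 target genes, rose by 2.64 ± 0.26 (adjusted p = 1.01e-05). The subunit genes that passed, named after their values were seen, changed less: Nfkb1 by 1.01, Rel by 0.73, Nfkb2 by 0.51 and Rela by 0.46.

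The JAK-STAT list was split, with 11 of 25 members higher and 8 lower (median 0.15). Stat3, which carries interleukin 6 and 22 signals, rose from 174, 170 and 160 CPM to 396, 499 and 373 CPM (1.33 ± 0.18, adjusted p = 6.37e-05). Its feedback inhibitor Socs3 rose from 39.1, 26.7 and 26.4 CPM to 96.4, 131 and 147 CPM (2.02 ± 0.35), and Socs1 rose by 1.99 ± 0.40. Osmr, the oncostatin M receptor subunit, rose by 1.52 ± 0.20. Its ligand Osm rose from 0.825, 0.167 and 0.214 CPM to 9.49, 11.1 and 11 CPM (4.67 ± 0.63; 5.75 without UTX/Veh replicate 1).

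Inflammasome and gasdermin genes were mostly higher, 15 of 23 with 1 lower (median 1.04). Nlrp3, the sensor of the best known inflammasome, rose from 1.10, 0.836 and 0.684 CPM to 9.49, 11.9 and 10 CPM (3.57 ± 0.36). Gsdmc, a pore-forming gasdermin of epithelium, rose from 19.9, 6.48 and 11.4 CPM to 266, 161 and 252 CPM (4.17 ± 0.46). Casp14, a protease of cornifying keratinocytes that processes filaggrin, went from 54.6, 54.8 and 51.0 CPM to 1289, 383 and 1084 CPM (4.10 ± 0.39), lowest in replicate 2. Complement genes gave no common direction: 6 of 24 were higher and 6 lower, and their median change of 0.0003 turned negative under 12 of 15 other settings. Among them the anaphylatoxin receptors C5ar1 and C3ar1 and the positive regulator Cfp, all typical of myeloid cells, were higher by 1.69 to 1.78.

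The chemokine list separated into many higher members (16 of 30) and few lower ones (4 of 30), with 10 at least 4-fold higher (median 1.06). The leading members attract neutrophils through the receptor CXCR2. Cxcl2 was at 0.747, 0.251 and 0.0427 CPM in UTX/Veh and at 57.5, 51.4 and 40.7 CPM in IMQ/Veh (7.11 ± 0.93; 8.34 without UTX/Veh replicate 1). Cxcl3 had 2 counts over the UTX/Veh libraries and 910 over the IMQ/Veh libraries, a ratio of 429 per count sequenced (exact 95% interval 118 to 3547, counting error only). For Cxcl5 there were 1 and 843 counts, a ratio of 795 (142 to 31420). All 3 genes were near the limit of detection in untreated skin and were between 7.16 and 57.5 CPM in every IMQ/Veh library.

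Adhesion and homing genes followed, with 10 of 18 higher and 2 lower (median 0.89). Itgam, the integrin of neutrophils and monocytes, rose from 10.1, 8.23 and 12.9 CPM to 82.8, 48.1 and 92.9 CPM (2.84 ± 0.33). Cd44, the hyaluronan receptor that keratinocytes also carry, rose by 2.08 ± 0.22. Among checkpoint and regulatory genes 10 of 22 were higher and 3 lower (median 0.59). Il1rn, the interleukin 1 receptor antagonist, went from 50.9, 57.4 and 51.0 CPM to 295, 302 and 202 CPM (2.33 ± 0.19, adjusted p = 3.01e-06). Cd274, which encodes PD-L1, rose from 10.5, 10.5 and 10.9 CPM to 28.1, 51.2 and 20.0 CPM, and Tnfrsf1b, the second receptor for tumour necrosis factor, rose by 1.61 ± 0.23.

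Epidermal growth factor (EGF) receptor ligands are made as membrane proteins, released by proteases and act on keratinocytes themselves. Epgn, which encodes epigen, rose from 0.668, 0.585 and 1.03 CPM to 68.2, 82.0 and 60.7 CPM (6.53 ± 0.51, adjusted p = 2.32e-06). Areg, which encodes amphiregulin, rose from 0.472, 0.460 and 0.385 CPM to 14.9, 9.81 and 18.2 CPM (5.00 ± 0.47), and Nrg1, a ligand of ErbB3 and ErbB4, rose from 0.878 to 1.38 CPM to 13.4 to 21.4 CPM (3.96 ± 0.35). Not all ligands shared this direction. The family of 20 had 10 higher and 7 lower members (median 0.23), and the receptor Erbb4 and the ligands Btc and Egf, named after their values were seen, were lower, at -2.71, -2.19 and -1.31. The receptor Egfr itself changed by 0.17 and did not pass.

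Of the Wnt pathway, which maintains basal and hair follicle stem cells, 29 of 38 members were lower and 4 were higher (median -0.95). Wnt10b, a ligand of hair follicles, fell from 6.92, 7.98 and 5.08 CPM to 0.778, 1.33 and 1.21 CPM (-2.58 ± 0.30). The inhibitors among the members with the largest changes also fell: Notum, an enzyme that removes the lipid of Wnt proteins, from 8.32 to 10.3 CPM to 1.56 to 2.09 CPM, and Wif1, a secreted Wnt binder, from 476, 420 and 527 CPM to 66.1, 114 and 186 CPM (-1.96 ± 0.31). The TGF-beta and BMP list had 23 of 36 lower and 3 higher (median -0.47). Its ligands Bmp6 and Bmp5 fell by 2.20 ± 0.28 and 1.99 ± 0.29 on the log2 scale, and Nog, the secreted BMP antagonist, fell by 2.01 ± 0.30.

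Hedgehog genes were lower in 9 of 14 and higher in 1 (median -0.65). The co-receptors Boc and Cdon fell from 114 to 132 and 101 to 117 CPM to 31.5 to 53.9 and 35.4 to 61.0 CPM, and Disp1, which releases the ligands, fell by 1.15 ± 0.18 on the log2 scale. Notch genes were mixed, with 5 of 22 higher and 9 lower (median -0.35). Without IMQ/Veh replicate 1 only 9 in all passed, and without IMQ/Veh replicate 3 it was 19 (6 higher and 13 lower). Dll1, a Notch ligand, fell from 34, 35.3 and 35.6 CPM to 13.9, 12.5 and 18 CPM, and the co-activator Maml2 fell by 1.39 ± 0.20 on the log2 scale. Nrarp, a feedback inhibitor of Notch, rose from 43.3, 41.8 and 39.9 CPM to 106, 115 and 84.4 CPM (1.29 ± 0.11). Mesenchymal tissue expresses many of these genes too, and the muscle, cartilage and fat markers given above were lower in the same libraries.

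Among 45 epidermal transcription factors 23 were higher and 8 lower (median 0.38). Elf3 and Ehf, ETS factors of epithelial differentiation, were higher by 4.08 ± 0.40 and 2.67 ± 0.22. Ehf went from 54.6, 43.6 and 45.5 CPM to 336, 327 and 251 CPM. Fosl1, the AP-1 subunit Fra-1 found in migrating and wounded keratinocytes, rose from 1.97, 1.3 and 1.07 CPM to 15, 12.2 and 13.8 CPM (3.23 ± 0.49). Hif1a, the hypoxia-regulated factor, rose from 83.0 to 89.2 CPM to 233 to 286 CPM (1.61 ± 0.18). Myc, which drives growth and ribosome production, was at 92.4, 94.9 and 79.3 CPM and at 94.4, 115 and 86.5 CPM. Its change of 0.15 ± 0.13 did not pass (adjusted p = 0.343).

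**Figure D2:**
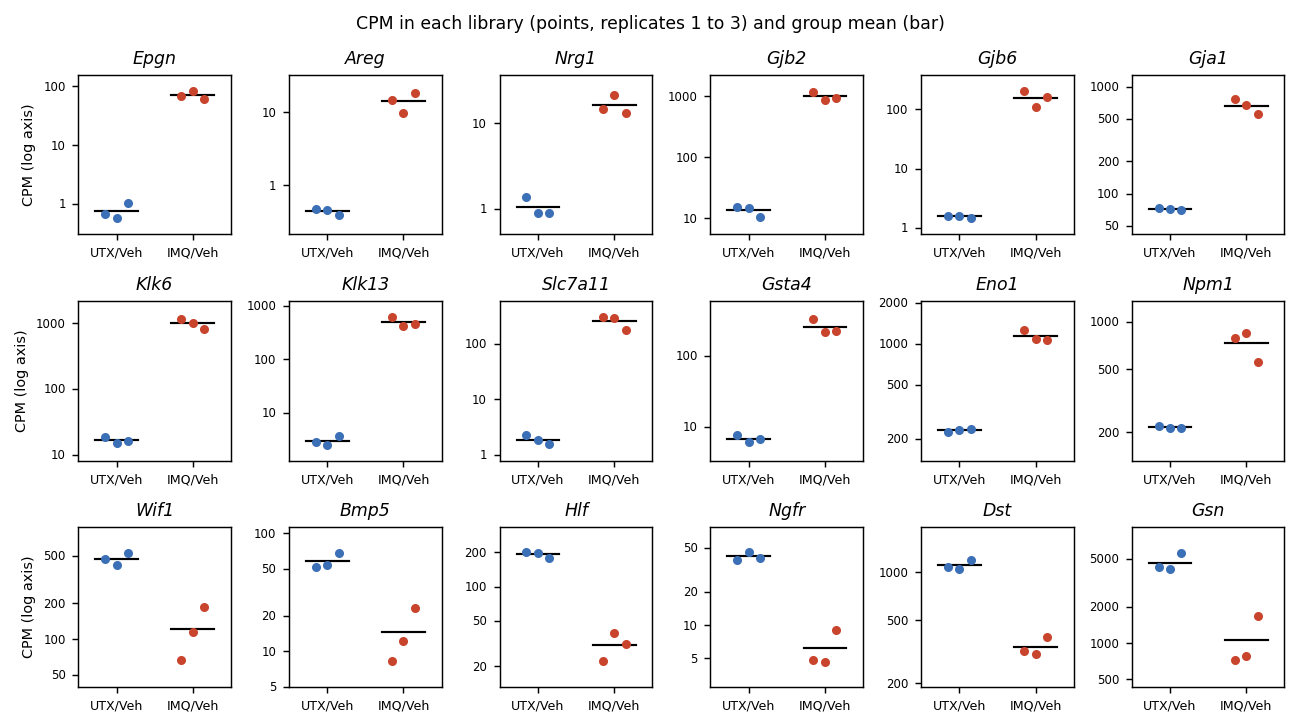
CPM on a log axis of 18 genes in each library (points, in replicate order) of UTX/Veh (blue) and IMQ/Veh (red), with the group mean as a bar. Most of these genes were chosen by a rule that asks for groups without overlap; Epgn lies at 0.585 to 1.03 CPM in UTX/Veh and at 60.7 to 82.0 CPM in IMQ/Veh.

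Genes for growth and division rose in nearly whole lists. Ribosome biogenesis, the assembly of ribosomes in the nucleolus, had all 32 members higher (median 1.24), with no overlap between groups in any. Npm1, a nucleolar chaperone, rose from 218, 212 and 212 CPM to 794, 846 and 557 CPM (1.77 ± 0.15), Nhp2, a protein of RNA-modifying particles, by 1.69 ± 0.16, and Bysl by 1.54 ± 0.21. The summed CPM of the list was 1619 to 1809 in UTX/Veh and 4184, 5313 and 3062 in IMQ/Veh, lowest in replicate 3. DNA replication genes were higher in 28 of 30 and lower in none (median 1.07). Rrm2, the subunit that limits deoxynucleotide supply, rose from 11.2 to 16.2 CPM to 62.5 to 94.6 CPM (2.52 ± 0.17), and the initiation factors Mcm10 and Orc1 rose by 2.66 ± 0.21 and 2.07 ± 0.28.

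Proteasome subunits were higher in 29 of 31 (median 0.91). The changes were small and even: Psme2, Psma7 and Psmb5 rose by 1.23 ± 0.12, 1.15 ± 0.10 and 1.12 ± 0.11. The 2 members that did not pass were Psmb8 and Psmb9 (0.33 and -0.25, named after their values were seen). Of 28 unfolded protein response genes 21 were higher and 1 lower (median 0.86), led by Sec61b, a subunit of the channel into the endoplasmic reticulum, at 1.57 ± 0.11, with Sdf2l1 and Manf at 1.39 ± 0.19 and 1.33 ± 0.16.

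Glycolysis and lactate genes were higher in 19 of 26 and lower in 4 (median 0.86). Eno1 (enolase 1) rose from 227, 231 and 238 CPM to 1266, 1083 and 1068 CPM (2.30 ± 0.14, adjusted p = 5.09e-07) and Pgam1 (phosphoglycerate mutase 1) from 84.4 to 88.4 CPM to 363 to 483 CPM (2.32 ± 0.13). Hk3, a hexokinase of myeloid cells, rose by 2.57 ± 0.38. The 4 lower members were Pfkm, Eno3, Ldhb and Eno2, of which Pfkm and Eno3 encode muscle forms, beside the lower muscle markers. Respiratory chain genes of the nucleus were higher in 28 of 32 with a smaller median of 0.59, led by Ndufa4, from 111 to 121 CPM to 308 to 367 CPM (1.55 ± 0.12). Under upper-quartile scaling, which shifts the median of all genes to -0.11, 24 were higher and 1 lower. The size of these rises also depended on the scale. Sdhd went from 55.5 to 105 in mean CPM and from 94.8 to 123 in mean TPM, a scale per length. Cycs went from 60.0 to 126 CPM and from 57.1 to 79.2 TPM, and Ndufa4 from 114 to 335 CPM and from 523 to 1084 TPM. The mitochondrial gene mt-Nd5, a subunit of the same chain, fell from 3121, 3292 and 3157 CPM to 1952, 1657 and 2284 CPM (-0.70 ± 0.16).

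Amino acid and polyamine genes were higher in 21 of 33 and lower in 6 (median 1.01). Slc7a11, the cystine importer that supplies glutathione synthesis, rose from 2.24, 1.84 and 1.54 CPM to 303, 294 and 176 CPM (7.10 ± 0.52, adjusted p = 1.58e-06). Smox, which oxidises spermine, rose from 12.2 to 16.2 CPM to 128 to 150 CPM (3.24 ± 0.23). Arg1, which makes ornithine from arginine, rose from 3.77, 3.64 and 2.39 CPM to 96.5, 19.7 and 104 CPM (4.48 ± 0.61), and replicate 2 again was low. Of NRF2 targets and glutathione genes, which detoxify oxidants, 22 of 34 were higher and 7 lower (median 0.64). Gsta4, a transferase for lipid peroxidation products, rose from 7.63, 6.10 and 6.67 CPM to 322, 212 and 223 CPM (5.21 ± 0.30), and Gpx2, an epithelial glutathione peroxidase, rose from at most 0.794 CPM to at least 11.7 CPM (4.91 ± 0.36).

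In the retinoid, aryl hydrocarbon and vitamin D list, 8 of 28 were higher and 8 lower (median -0.05). The members with the largest changes act in retinoic acid metabolism. Dhrs9 and Aldh1a3, steps of synthesis, rose by 3.43 ± 0.27 and 2.47 ± 0.19, while Cyp26a1, the degrading enzyme and itself a retinoic acid target, fell from 8.88, 9.66 and 8.59 CPM to 0.571, 2.21 and 2.31 CPM (-2.40 ± 0.46). Another synthetic enzyme, Aldh1a1, went against this pattern at -2.26 (named after its value was seen).

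Clock genes, which keep daily time, were lower in 14 of 19 (median -1.41). Hlf, an output factor that binds the D-box, fell from 200, 198 and 178 CPM to 22.1, 39.3 and 31.3 CPM (-2.63 ± 0.24, adjusted p = 5.93e-06). The repressor Bhlhe41 fell by 2.01 ± 0.28 on the log2 scale. The 3 higher members were Nfil3, which competes with Hlf for the D-box, Bhlhe40 and Clock, at 1.25, 0.66 and 0.36 (named after their values were seen). The core activator gene Arntl changed by -0.16 and did not pass. The labels give no time of day of collection.

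The proteases that shed the outermost skin rose as a whole list: all 24 tested kallikreins, cathepsins and their inhibitors were higher, 10 of them at least 4-fold (median 1.57). Klk6 rose from 18.3, 15.1 and 16.1 CPM to 1174, 991 and 811 CPM (5.91 ± 0.21, adjusted p = 5.52e-08), the smallest p of all genes. Klk13 rose from 2.87, 2.55 and 3.72 CPM to 630, 414 and 466 CPM (7.37 ± 0.36). Klk14, an activator of other kallikreins, had 0.197 CPM in UTX/Veh replicate 1 and none in replicates 2 and 3, against 15.4, 22.9 and 20.3 CPM (8.04 ± 0.72; 11.71 without that UTX/Veh library). Spink5, which encodes the inhibitor LEKTI of these proteases, rose by 0.40 (named after its value was seen), less than any kallikrein on the list.

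Connexins form gap junctions, and tight junctions seal the granular layer. Of 26 members of that list 8 were higher and 12 lower (median -0.41), and the higher ones were led by 3 connexins. Gjb6 (connexin 30) rose from 1.61, 1.59 and 1.5 CPM to 201, 110 and 162 CPM (6.65 ± 0.29, adjusted p = 1.69e-07), Gjb2 (connexin 26) from 15.3, 14.4 and 10.3 CPM to 1202, 868 and 941 CPM (6.23 ± 0.34), and Gja1 (connexin 43) from 70.1 to 72.4 CPM to 558 to 770 CPM (3.22 ± 0.16). Other members, named after their values were seen, were lower: Cldn3 at -2.79, Cgn (cingulin) at -2.22 and Cldn8 at -1.89.

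Anchorage to the basement membrane was lower in 13 of 31 genes and higher in 5 (median -0.30; 16 and 3 under upper-quartile scaling). Dst (dystonin), whose epithelial form BPAG1 links keratin to hemidesmosomes, fell from 1085, 1050 and 1200 CPM to 321, 305 and 394 CPM (-1.71 ± 0.19), and Col7a1, the anchoring fibril collagen, fell by 1.40 ± 0.18 on the log2 scale. Tnc, a matrix protein of wounds, rose from 88.8, 65.8 and 105 CPM to 287, 201 and 501 CPM (1.93 ± 0.47).

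Barrier lipid enzymes were higher in 19 of 28 and lower in 6 (median 0.76). Degs2 and Cers3, steps of ceramide synthesis, rose by 3.26 ± 0.21 and 2.13 ± 0.14, with Cers3 going from 47.6, 57.4 and 51.2 CPM to 270, 217 and 199 CPM. Alox12e, an epidermal lipoxygenase, fell from 294, 230 and 307 CPM to 22, 18.4 and 51.5 CPM (-3.18 ± 0.36; -3.77 without IMQ/Veh replicate 3). Eicosanoid genes were split, 13 of 31 higher and 9 lower (median 0.45; 0.16 without IMQ/Veh replicate 3). The epithelial phospholipases Pla2g4d and Pla2g4b rose by 6.75 ± 0.60 and 4.63 ± 0.27, and Ptgs2, which encodes cyclooxygenase 2, rose from 3.14, 1.63 and 2.05 CPM to 42.0, 29.3 and 65.9 CPM (4.32 ± 0.40).

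Serpins had 14 of 30 higher and 7 lower members (median 0.33, the same with Serpinb3d, at 0 counts in UTX/Veh, at its bound). Serpinb3a, the mouse relative of squamous cell carcinoma antigen, rose from 4.13, 3.47 and 2.48 CPM to 459, 269 and 370 CPM (6.76 ± 0.61), and Serpina9 and Serpinb6c rose by 5.67 ± 0.29 and 3.04 ± 0.19. Near-identical Serpinb3 copies may share reads. Matrix metalloproteinases and inhibitors had 13 of 28 higher and 6 lower (median 0.66), but without IMQ/Veh replicate 3 these were 10 and 9 (median 0.02). Mmp13, a collagenase, went from 0.432, 0.209 and 0.0854 CPM to 3.84, 2.25 and 15.5 CPM (4.83 ± 0.96; 3.60 without that library), and Adamts4 rose by 3.27 ± 0.57 (2.58 without it). The inhibitors parted: Timp1 rose from 4.01 to 4.99 CPM to 32.0 to 61.3 CPM, and Timp3 fell from 1387, 1363 and 1792 CPM to 202, 262 and 563 CPM.

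Sensory and itch signals had 9 of 26 higher and 5 lower members (median 0.29; 0.02 without IMQ/Veh replicate 3). Ngfr, a neurotrophin receptor found on Schwann cells and basal keratinocytes, fell from 38.9, 45.9 and 40.6 CPM to 4.88, 4.66 and 9.08 CPM (-2.76 ± 0.23). Schwann cell genes were lower as well: S100b was at -2.04 ± 0.30 and Cdh19 at -1.77 ± 0.36 (-2.36 without IMQ/Veh replicate 3). Melanocyte markers gave no common direction, 3 of 11 higher and 4 lower, and without IMQ/Veh replicate 2 none was higher and 4 were lower. Their median of 0.15 also turned to -0.54 there and to -0.02 with limma-voom. The pigment genes Tyr, Pmel and Dct (named after their values were seen) were the higher ones, at 1.25, 0.98 and 0.72, and Kit, Sox10 (also on the Schwann cell list), Gpnmb and Mitf were the lower ones, at -1.01, -1.17, -1.21 and -0.72.

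**Figure D3:**
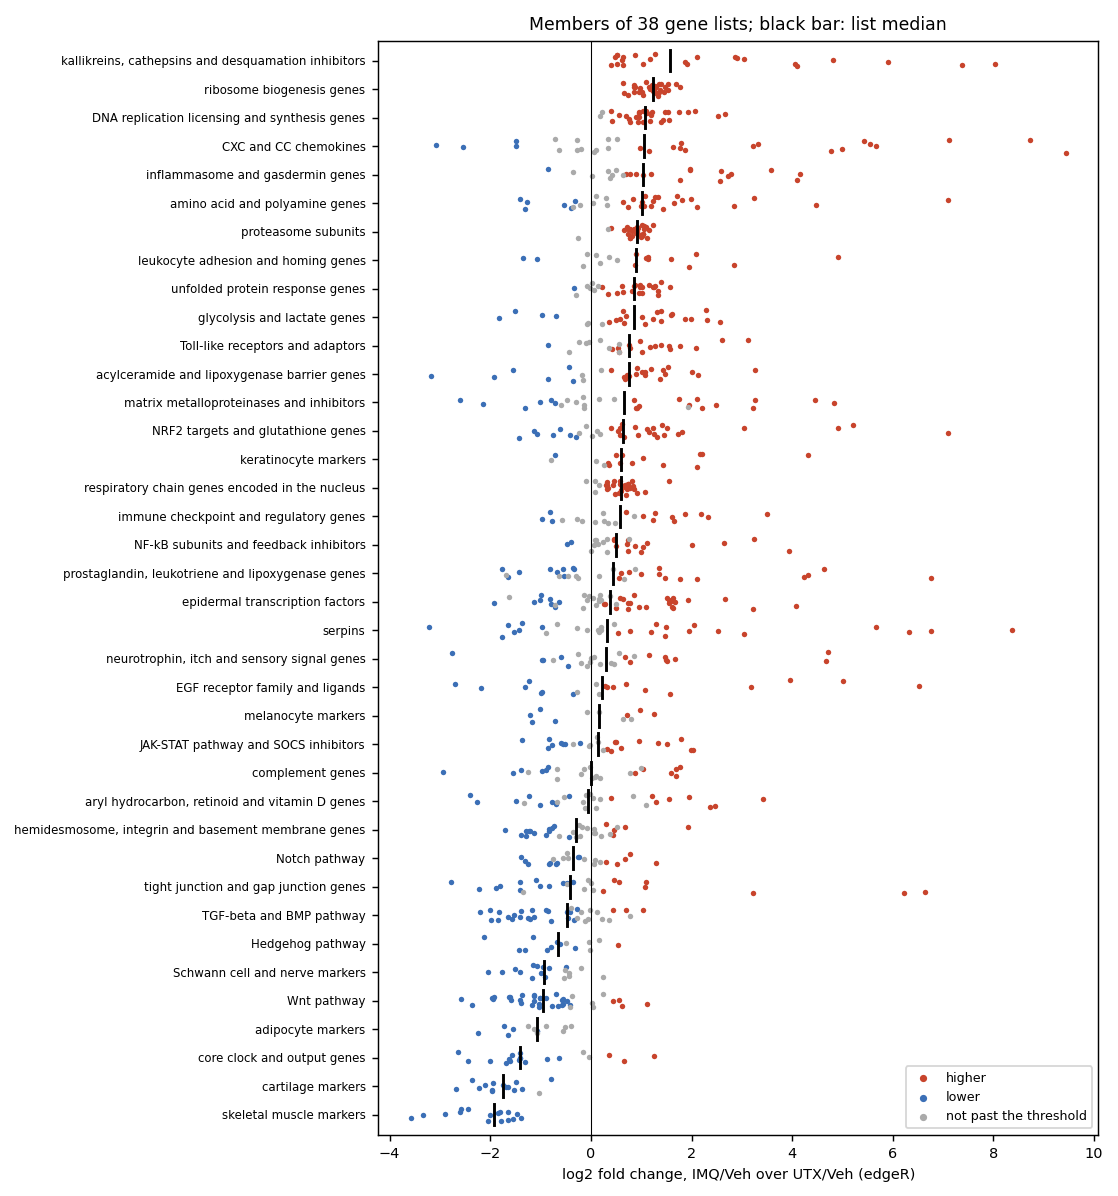
Each point is a tested member of 1 of 38 gene lists, placed by its log2 change (x axis) and coloured by whether it was higher (red), lower (blue) or did not pass (grey), with the list median as a black bar. Lists run from skeletal muscle markers (median -1.93) to kallikreins and cathepsins (median 1.57), and all 32 ribosome biogenesis genes are red.

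The 10 genes that gained most CPM were keratins, envelope genes and others known from keratinocytes. They made up 23.3% of the summed gain in CPM over all changed genes, and the 10 largest losses 14.6% of the summed loss. S100a9, among the 10 gains, is also a neutrophil marker, and the cells that its RNA came from were not tested. Gains were led by Krt1, which went from 1016, 797 and 905 CPM to 23629, 10600 and 20079 CPM (4.32 ± 0.34), and Krt14, the basal keratin, from 3358, 3724 and 3381 CPM to 19525, 13196 and 15715 CPM (2.21 ± 0.20). Fabp5, a fatty acid carrier of keratinocytes, rose from 266, 315 and 281 CPM to 6188, 3792 and 4818 CPM. Calm4, a calcium-binding protein of differentiating epidermis, rose by 2.01 ± 0.18. Among the losses were Scd1, the desaturase of sebaceous glands and fat, from 5282, 5481 and 5620 CPM to 1016, 2140 and 2183 CPM, and Gsn (gelsolin), an actin-severing protein, from 4300, 4135 and 5556 CPM to 722, 784 and 1674 CPM.

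Keratin partners did not keep their proportions. On the scale per length (TPM), UTX/Veh held 6964 of Krt2, 710 of Krt1 and 9146 of Krt10, and IMQ/Veh held 2808, 9629 and 9405 in the mean. Krt2 was above Krt1 in all 3 UTX/Veh libraries and in IMQ/Veh replicate 2 (6646 against 5859 TPM), and below it in IMQ/Veh replicates 1 and 3 (851 and 927 against 11940 and 11087 TPM). In CPM, Krt10 rose by 0.57 ± 0.13 and Krt5 by 0.82 ± 0.14. In TPM the groups overlapped for Krt10, at 8404 to 9983 in UTX/Veh and 9078 to 9713 in IMQ/Veh. The rise of Krt10 thus depends on the scale. Krt2 was at 9072, 11316 and 8294 CPM in UTX/Veh and at 1803, 12884 and 1799 CPM in IMQ/Veh: 2 libraries were far below untreated skin and replicate 2 was above it. Its change of -0.80 ± 0.61 did not pass (adjusted p = 0.273), but without replicate 2 it was -2.46 and did (adjusted p = 2.8e-05), as it did with limma-voom (-1.45). In the libraries of imiquimod with an agonist Krt2 was at 8277 to 17012 CPM and Arg1 at 10.5 to 30.6 CPM, ranges that take in IMQ/Veh replicate 2. In other genes that library stood with its own group: S100a9 was at 6440 CPM in it, 3721 and 6091 CPM in replicates 3 and 1, and 154 to 1291 CPM with an agonist, and Krt6b was at 5778, 7809 and 9539 CPM and at 561 to 2884 CPM.

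The late envelope genes differed from each other. Flg (filaggrin) rose from 334, 403 and 365 CPM to 2424, 926 and 2797 CPM (2.48 ± 0.32), again with replicate 2 lowest, and Flg2 fell from 1444, 1625 and 1578 CPM to 44.1, 64.3 and 124 CPM (-4.32 ± 0.40), the opposite of the gene whose AP-1 match it shares. Lor (loricrin) was at 1958, 2423 and 2062 CPM and at 2002, 1166 and 1662 CPM, a change of -0.42 ± 0.20 that did not pass (adjusted p = 0.0868). With DESeq2, upper-quartile scaling, no count filter or without IMQ/Veh replicate 1 it passed as lower, at -0.44 to -0.64.

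**Figure D4:**
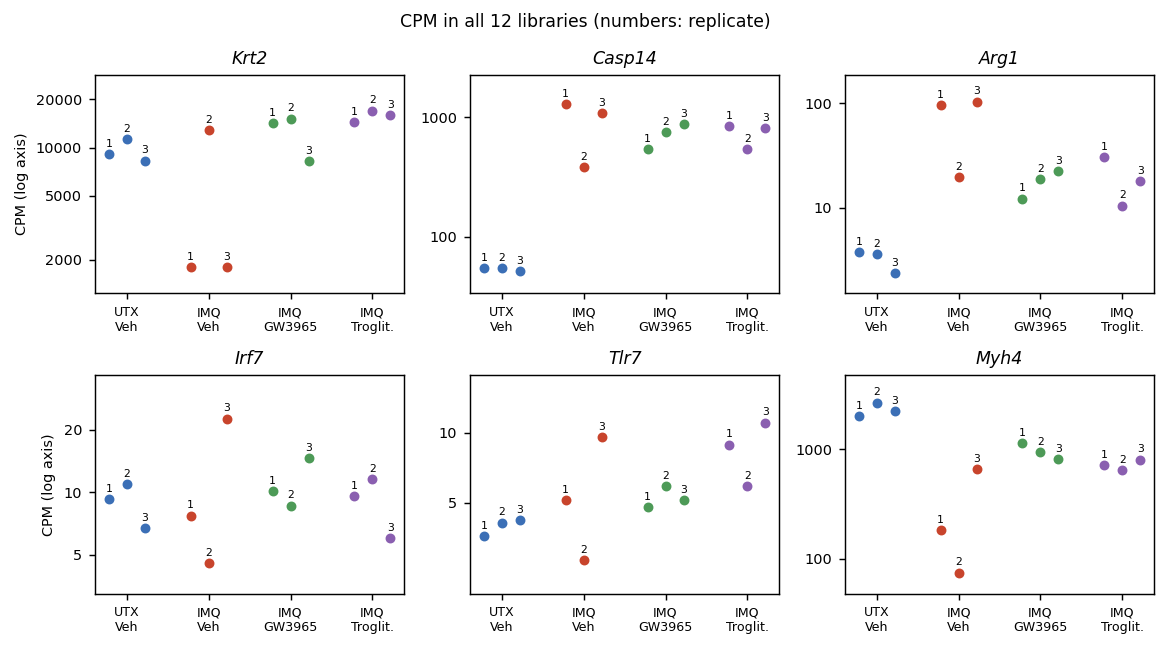
CPM on a log axis of 6 genes whose IMQ/Veh libraries differed, in all 12 libraries, with the replicate number above each point. IMQ/Veh replicate 2 stands apart from replicates 1 and 3 in Krt2 (12884 against 1803 and 1799 CPM), Casp14 and Arg1, and IMQ/Veh replicate 3 is the highest of its group in Irf7, Tlr7 and Myh4.

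The genes with the smallest p included several of little known role in skin. Tcf23, a helix-loop-helix factor, was at 0.157, 0 and 0.0854 CPM and at 46.9, 32.7 and 41.5 CPM (8.84 ± 0.34, adjusted p = 9.17e-08; 9.71 without UTX/Veh replicate 1). Teddm3 rose from 8.14, 9.24 and 9.44 CPM to 278, 210 and 216 CPM (4.72 ± 0.21). On the lower side stood Tmem229a (-3.02 ± 0.14), Skint5, a member of the family that selects epidermal gamma-delta T cells (-2.53 ± 0.13), Slc24a3 (-2.42 ± 0.15), Cd82 (-1.95 ± 0.11), Atp2b4, a calcium pump (-1.81 ± 0.12), and Tnfrsf19 (-1.36 ± 0.09). Tmem229a was at 22.9, 22.1 and 20.9 CPM and at 2.39, 2.94 and 2.78 CPM. The gap was far wider than the spread within either group, which a choice by smallest p favours.

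Changed genes also lay side by side. A search for at least 6 consecutive tested genes that all changed at least 2-fold in the same direction, a rule chosen after the data were seen, found 9 runs on the mm10 gene map. The longest covered the small proline-rich genes on chromosome 3 (92285417 to 92485895), where 13 genes in a row were higher with a median of 8.21. The next held 12 genes on chromosome 16 (36043761 to 36455392), Fam162a and Ccdc58 followed by the stefin cluster. The third covered the kallikreins from Klk13 to Klk5 on chromosome 7 (43712567 to 43851181). It held 10 genes, a predicted model among them, with a median of 3.48. Within the kallikrein run the change was uneven: Klk13 (7.37) and Klk6 (5.91) rose far more than Klk5 (1.04) and Klk7 (1.90). The 6 Lce3 genes on chromosome 3 (92925287 to 92993426) rose by 5.64 to 9.69, with Lce3c, the most abundant, going from 4.01, 3.22 and 3.08 CPM to 217, 133 and 165 CPM. Of the 2 lower runs, the longer was 8 myosin heavy chain and antisense genes on chromosome 11 (67078300 to 67308634). Near-identical copies in the Sprr2 and stefin clusters may share reads, as may the antisense genes and their partners, so single values there are uncertain.

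**Figure D5:**
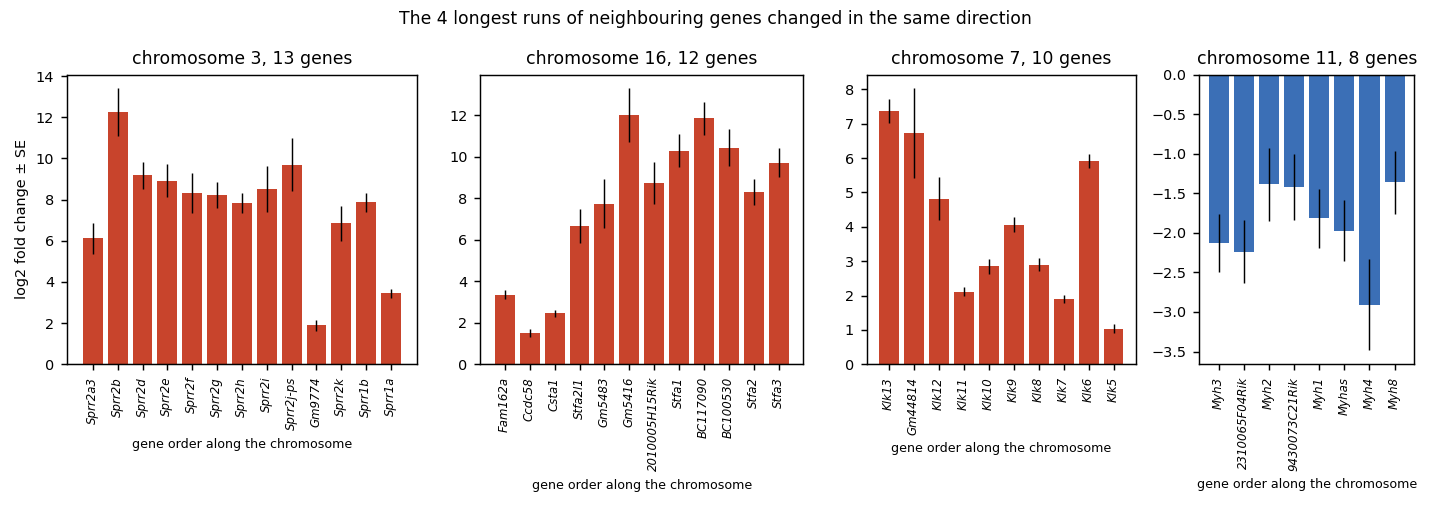
Log2 change with its standard error (y axis) of each gene in the 4 longest runs of neighbouring tested genes, in chromosome order (x axis); red is higher and blue lower in IMQ/Veh. Kallikreins range from 1.04 (Klk5) to 7.37 (Klk13); bars of genes with no UTX/Veh count depend on the prior count of the fit.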

How the data were processed

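Messenger RNA of mouse ear skin was sequenced after TruSeq stranded mRNA library preparation, per the labels' protocols. Per the submitters' processing notes the tools were FastQC, Trim Galore, STAR 2.7.3a and RSEM 1.3.3, with GRCm38/mm10; the annotation release and strand setting are not stated. As deposited, the files hold RSEM expected counts and TPM per gene (55416 identifiers, of which 52135 matched GENCODE M21). The deposited TPM values were used to compare levels between genes and, for some genes, to set a change in CPM beside another scale. No test was run on them.

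Expected counts were rounded to whole numbers. All 12 libraries (18242074 to 25641602 counts) entered 1 edgeR 4.0.16 quasi-likelihood fit (R 4.3.3) with filterByExpr by group, TMM scaling and 8 residual degrees of freedom, so the agonist groups share the estimate of the spread. Benjamini-Hochberg adjustment ran over 17130 genes at a threshold of 0.05. On simulated counts the fit recovered 76% and 80% of genes changed by -1 and 1 log2 units, and 96% and 100% of those changed by -2 and 2. The simulation changed 50 genes at each size and gave all genes and groups the same dispersion. In the data far more genes changed and the IMQ/Veh libraries spread more, so these shares describe the simulation only. No 2 of the 6 libraries agreed within sampling noise. Alternatives were DESeq2 1.42.0, limma-voom (limma 3.58.1), upper-quartile and RLE scaling, other count filters, the 2 groups alone, replicate and lane terms, and leaving out each library.

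The members and the 38 lists (959 genes tested) were chosen with earlier results of these data known. Genes named are, for each list, up to 3 changed members of the largest log2 change with at least 5 CPM in the higher group and no overlap, else the most abundant; the 10 largest gains and losses in CPM; the 6 higher and 6 lower genes with the smallest p and at least 10 CPM; and 19 fixed genes. Predicted gene models (1059 changed) are counted and not named. Of 153 named genes, 117 matched the RefSeq promoter table. Some named genes are not reported here.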

Additional observations from a re-analysis of the deposited data

How the results depend on the processing

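The counts of changed genes stayed within 1.5 times of the reported values under every alternative run. Changed genes numbered 9579 (the 2 groups alone) to 10827 (limma-voom) outside the fits that left out a library, which gave 9342 to 11280, and genes changed at least 4-fold numbered 1159 to 1929 in those fits. Upper-quartile scaling, which moved the median of all genes to -0.11, turned the split of 5646 higher and 4951 lower genes into 4804 and 5867. None of the 153 named genes that passed the test changed direction. Without IMQ/Veh replicate 3, 15 named genes moved by over 1.5 times, Myh4 to -4.15 and Acta1 to -2.60 among them, and without UTX/Veh replicate 1, 10 did, such as Krt6b to 12.14 and S100a9 to 11.35. Acta1 (-1.47, adjusted p = 0.0195) lost its call in the fit of the 2 groups alone (0.0714) and without IMQ/Veh replicate 1 (0.0581). Of the lists, the adipocyte count went from 6 to 11 and 12 and the melanocyte count from 7 to 4. The Notch count went from 14 to 9, and to 19 without IMQ/Veh replicate 3. The cause was not tested.

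Same-numbered libraries of the groups had correlations of 0.082, 0.29 and 0.397 in their deviations. Each library correlated best with its own number, which is a hint from the data and not from the design. The libraries numbered 2 and those numbered 3 also shared a lane field, and those numbered 1 did not. Pairs in the same lane field with different numbers were at 0.054 and -0.134. The part of the lane in these correlations was not tested. With the replicate block 10722 genes changed, 10387 of them shared with the fit without it. With the lane field as a covariate 10331 changed. Genes near 0 counts in UTX/Veh are limited by depth: 23 changed genes had no count there.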
